A study of Mus musculus with 46 samples.

Results

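The guanylate-binding proteins (GBPs) and immunity-related GTPases (IRGs) are encoded by interferon-induced genes of macrophages, and 10 of them were followed here through every sample of the series: Gbp2, Gbp3, Gbp4, Gbp5, Gbp6, Gbp7, Iigp1, Igtp, Irgm1 and Irgm2. They were chosen by gene symbol, not by any measured value, and all 10 were found among the 24037 genes listed in each of 4 expression tables. The samples were mouse bone marrow-derived macrophages (BMDMs) stimulated with lipid A or lipopolysaccharide (LPS), which both act through the receptor TLR4. SWI/SNF, a chromatin remodelling complex, was perturbed in part of the samples. In experiment 1 wild-type (WT) cells were sampled before and 1 and 4 hr after lipid A, the 4 hr point also under ACBI1, BRM014 or BRDK98. Experiment 2 sampled Arid1a f/f cells before and 1 and 4 hr after LPS, with Arid1a-/- cells at both later times. For experiment 3, Pbrm1 f/f cells were sampled before and 4 hr after lipid A, with Pbrm1-/- cells at the later time only. Experiment 4 sampled WT cells before and 20 and 60 min after lipid A, both later times also under each of the 3 compounds. Each of the 23 groups had 2 labelled samples, but the 4 hr control of experiment 1 is 1 library here because its second column repeats the first. ACBI1 causes degradation of 3 SWI/SNF proteins, the ATPases SMARCA4 and SMARCA2 and the subunit PBRM1. BRM014 blocks the activity of both ATPases instead, and for BRDK98 only the code name is used. Doses, the length of compound treatment, and the Cre driver and animals behind the knockouts are not given in the sources used here. No perturbed cells at time 0 were analysed here, so an effect already present before the stimulus and an effect on the response cannot be told apart.

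GBPs are large GTPases that assemble on the vacuoles of intracellular pathogens and on the surface of some bacteria. Mouse IRGs act with them: Iigp1 is an effector loaded onto pathogen vacuoles, while Irgm1, Irgm2 and Igtp (also called Irgm3) are regulators that protect the cell's own membranes from the effectors. Gbp2 and Gbp5 also promote inflammasome activation, partly by making bacterial LPS accessible to the inflammatory caspase encoded by Casp4. TLR4 switches on Ifnb1, and the secreted interferon-beta then signals through the receptor subunits encoded by Ifnar1 and Ifnar2 to a complex that holds STAT2 and IRF9 and binds the interferon-stimulated response element (ISRE). IRF1 also binds ISRE sites, and the gamma-activated sequence (GAS) is an element of genes induced by interferon-gamma.

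The members lie in 3 gene clusters and at 2 single loci (authors' files, mm10). Gbp5, Gbp7, Gbp3 and Gbp2 follow each other on the plus strand of chromosome 3 between 142496934 and 142638008. Gbp4 and Gbp6 lie on the minus strand of chromosome 5 between 105115767 and 105293699. Igtp and Irgm2 are neighbours on the plus strand of chromosome 11 between 58199556 and 58222783. Irgm1 lies elsewhere on chromosome 11, on the minus strand from 48865245 to 48871420, in the tables of experiments 2 and 4, and Iigp1 on another chromosome. The tables of experiments 1 and 3 used other transcript models for Gbp3, Gbp4, Iigp1 and Irgm1, so levels of these 4 are less comparable across the pairs of experiments. In the GENCODE annotation of GRCm38, exons of Igtp and Irgm2 share bases with each other, those of Gbp4 with Gbp8 and Gbp9, of Gbp6 with Gm43302, of Gbp7 with the pseudogene Gm43802 and of Gbp2 with Mir6381 on the other strand. Values of these 6 genes are therefore less certain than those of Gbp3, Gbp5, Irgm1 and Iigp1, and close paralogs may also exchange reads.

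Stretches of 100 bases (140 for Gbp5) before the start of 7 members are shown because all 7 hold the letters of an interferon response element. They come from the RefSeq promoter table of build GRCm38.p6, which covers 250 bases before to 50 after each start. Gbp4, Gbp6 and Iigp1 were not matched in that table. Capitals mark each ISRE match (GAAANNGAAA on either strand) and each GAS match (TTCNNNGAA, which is its own reverse complement). Sequences read 5′ to 3′ on the strand of the gene, so a match on the other strand appears as its reverse complement. The stretches are chr3:142620553-142620652 for Gbp2, chr3:142559934-142560033 for Gbp3, chr3:142496759-142496898 for Gbp5, chr3:142530226-142530325 for Gbp7, chr11:58199446-58199545 for Igtp and chr11:58214867-58214966 for Irgm2, all on the plus strand, and chr11:48871431-48871530 on the minus strand for Irgm1.
Gbp2: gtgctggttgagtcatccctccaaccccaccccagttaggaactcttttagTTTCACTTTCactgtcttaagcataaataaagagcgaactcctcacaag
Gbp3: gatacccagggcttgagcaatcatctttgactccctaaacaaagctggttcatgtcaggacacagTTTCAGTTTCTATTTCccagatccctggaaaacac
Gbp5: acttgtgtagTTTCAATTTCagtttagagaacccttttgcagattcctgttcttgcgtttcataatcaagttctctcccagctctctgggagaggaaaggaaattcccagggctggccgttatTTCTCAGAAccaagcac
Gbp7: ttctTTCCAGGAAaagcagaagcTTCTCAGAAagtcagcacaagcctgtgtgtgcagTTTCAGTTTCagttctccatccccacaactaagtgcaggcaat
Igtp: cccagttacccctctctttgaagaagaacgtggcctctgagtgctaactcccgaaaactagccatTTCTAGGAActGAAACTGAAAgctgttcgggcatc
Irgm2: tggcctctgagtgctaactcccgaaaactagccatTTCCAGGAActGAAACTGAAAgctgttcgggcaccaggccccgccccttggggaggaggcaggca
Irgm1: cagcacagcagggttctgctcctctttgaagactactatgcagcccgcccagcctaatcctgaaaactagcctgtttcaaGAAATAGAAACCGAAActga
Over the whole 300 bases, ISRE letters were in 7 of 7 member promoters, against 3.44% of 32851 promoters in the table. GAS letters were in 4 of 7 (Gbp5, Gbp7, Igtp and Irgm2), against 8.30%. The NF-kB consensus was in Gbp2 and Gbp5, against 8.46% of all promoters. Counted from the start, ISRE matches began at -64 (Irgm2), -59 (Gbp2), -53 (Gbp7), -45 and -39 (Gbp3), -34 (Igtp), -30 and -24 (Irgm1) and -165 (Gbp5). The pairs in Gbp3 and Irgm1 overlap. Igtp and Irgm2 each held a GAS match with 2 bases between it and the ISRE match. Their promoters had 184 equal bases of 270 compared without gaps (68.1%), while the next most similar pair, Irgm1 and Irgm2, had 35.1%. A match describes letters only, and no binding was measured.

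**Figure D1:**
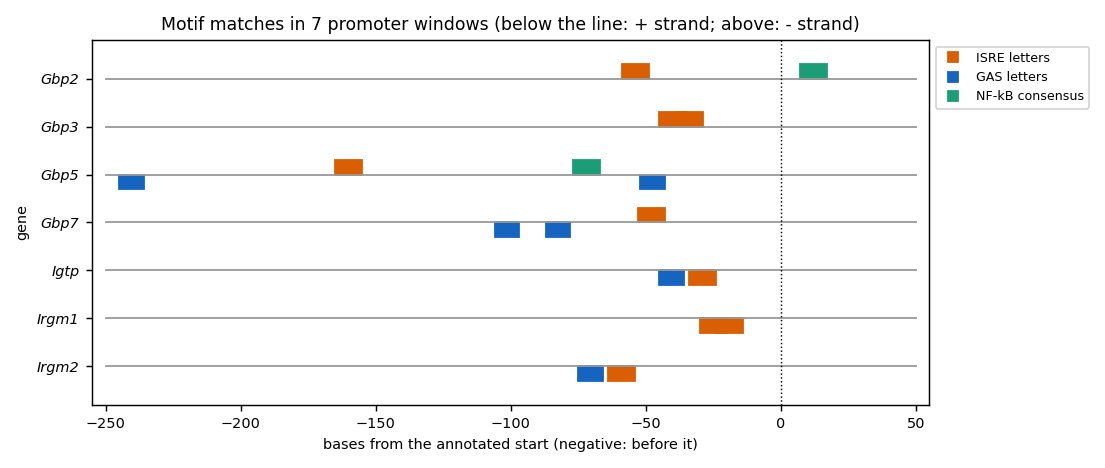
Matches to ISRE letters (orange), GAS letters (blue) and the NF-kB consensus (green) in the promoter windows of 7 members, by distance in bases from the annotated start on the x axis. Blocks below a line are on the strand of the gene or, for GAS, on both strands, and blocks above are on the other strand. Every window holds at least 1 ISRE match, and the match of Gbp5 lies farthest from the start.

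Values are TPM as deposited, a share of transcripts that corrects for transcript length. Between 7015041 and 27527091 exonic reads per library could be recovered from the tables, and 3 reads on a member equal 0.0234 to 0.295 TPM. A log2 change is the difference in mean log2(TPM + 1) between groups, ± its standard error in limma, and p is adjusted by Benjamini and Hochberg over the 11044 to 11798 genes tested in an experiment. A gene is said to have risen or fallen where its adjusted p was under 0.05, with 1 sign, both on TPM as deposited and on TPM scaled by median-ratio factors. The second scaling moved the median log2 change of all genes, for lipid A at 4 hr in experiment 1 from -0.84 to -0.06. Some directions of uncalled changes therefore differ between the scalings, and many but not all of these are named. Groups hold 2 libraries, and p-values measure only the spread between them, which may be technical. As a check of the labels, Arid1a was at 7.17 and 13.2 TPM in Arid1a-/- against 18.3 and 17.3 TPM in control cells at 1 hr, and at 25.4 and 26.1 against 35.2 and 41.9 TPM at 4 hr, so transcript reads remained. Pbrm1 was at 4.54 and 5.03 TPM in Pbrm1-/- against 15.6 and 14.7 TPM in Pbrm1 f/f cells. All 7 macrophage markers listed reached 1 TPM in each experiment. Summed TPM of 8 granulocyte markers was 6.27 to 52.4 in experiments 1 and 2 and 268 to 511 in experiments 3 and 4, and that of 8 lymphocyte markers was 0 to 1.44. Control replicate 1 at 1 hr of experiment 1 held 153 TPM of 6 stromal markers against 0.345 in replicate 2. The replicates of the 4 hr control in experiment 3 and of BRM014 at 60 min in experiment 4 differed most from each other. In experiment 2 the 1 hr samples are labelled as polyA RNA and those at 0 and 4 hr as total RNA, so that label and time cannot be told apart.

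All 10 GTPase mRNAs had reads in resting macrophages, and by 4 hr of lipid A all 10 rose in experiments 1 and 3. In bulk RNA, more RNA per cell and more cells that hold it cannot be told apart. Together the 10 made up 0.0264% and 0.0265% of listed TPM at rest in experiment 2. Resting cells gave 0.0890% and 0.142% in experiment 1. The same share lay between 0.130% and 0.169% for experiment 3, and experiment 4 gave 0.153% and 0.216%. At 4 hr the control cells gave 1.75% in experiment 1, 0.900% and 1.03% in experiment 2, and 1.51% and 1.92% in experiment 3. Resting levels thus differed several-fold between experiments, whose tables were normalized separately and were not tested against each other.

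Gbp2 was the highest member at 4 hr in all 3 experiments. It stood at 184 and 113 TPM at rest and 3376 TPM at 4 hr of lipid A in experiment 1 (log2 change 4.54 ± 0.23, adjusted p = 1.21e-07). In experiment 2 it went from 17.6 and 18.3 TPM to 1564 and 1398 TPM with LPS (6.29 ± 0.09, adjusted p = 8.81e-12). Experiment 3 gave 232 and 173 TPM at rest and 3048 and 2752 TPM at 4 hr (3.85 ± 0.17, adjusted p = 6.32e-07). No resting library overlapped a 4 hr library in any of the 3. The count of 10 of 10 risen compares with 20.1% of tested genes that rose in experiment 1 and 16% in experiment 3, with member medians of 4.34 and 3.69 beside -0.84 and -0.75 over all tested genes. In experiment 2 Gbp4, Gbp6 and Iigp1 passed the filter on low values (1 TPM in 2 libraries) only through their 4 hr libraries, so their rises there were fixed by the filter. The other 7 all rose, with a median of 5.23, where 17.9% of tested genes rose and the median of all was -0.63.

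Single members differed in the size of their rise by 4 hr, a ranking that was not tested. Iigp1, the effector IRG (chromosome 18, plus strand, from 60373616 to 60392629 in the tables of experiments 2 and 4), had the largest log2 change in experiment 1 (5.82 ± 0.44, from 63.6 and 31.0 to 2573 TPM). With LPS it rose from 0.786 and 0.831 to 406 and 306 TPM (7.61 ± 0.19), beside 7.72 ± 0.09 for Gbp5. With resting values under 1 TPM, the log2 change of Iigp1 depends on the 1 added to TPM, so the order of these 2 is not read. The regulators of the IRG system rose less: Irgm2 had the smallest log2 change in all 3 experiments (1.80 ± 0.18, 3.48 ± 0.12 and 2.03 ± 0.15). Gbp7 changed least among the GBPs, by 2.49 ± 0.14, 3.94 ± 0.14 and 2.77 ± 0.17. By group mean Gbp4 and Gbp6 stayed the lowest members in the 4 hr controls, at 29.3 and 27.3 TPM and 40.9 and 37.8 TPM in experiment 2. At rest in that experiment Gbp4 had 5 and 3 reads in the pair of libraries, so its log2 change of 4.73 ± 0.11 depends on the 1 added to TPM.

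The order of resting levels was led by Irgm1 in experiments 1, 2 and 3, and by Gbp2 in experiment 4. In experiment 2, whose resting replicates differed least, Irgm1 (58.3 and 56.9 TPM) stood above Irgm2 (22.3 and 23.7 TPM). Gbp2 (17.6 and 18.3 TPM) and Igtp (19.7 and 15.8 TPM) came next and overlapped each other. Gbp7 (12.8 and 15.6 TPM), Gbp3 (6.62 and 7.33 TPM) and Gbp5 (4.38 and 4.24 TPM) followed without overlap. Iigp1, Gbp6 and Gbp4 were under 1 TPM. By 4 hr Gbp2 and Gbp5 led, and Igtp (749 and 648 TPM) and Gbp3 (680.3 and 563 TPM) overlapped in the middle of the order.

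**Figure D2:**
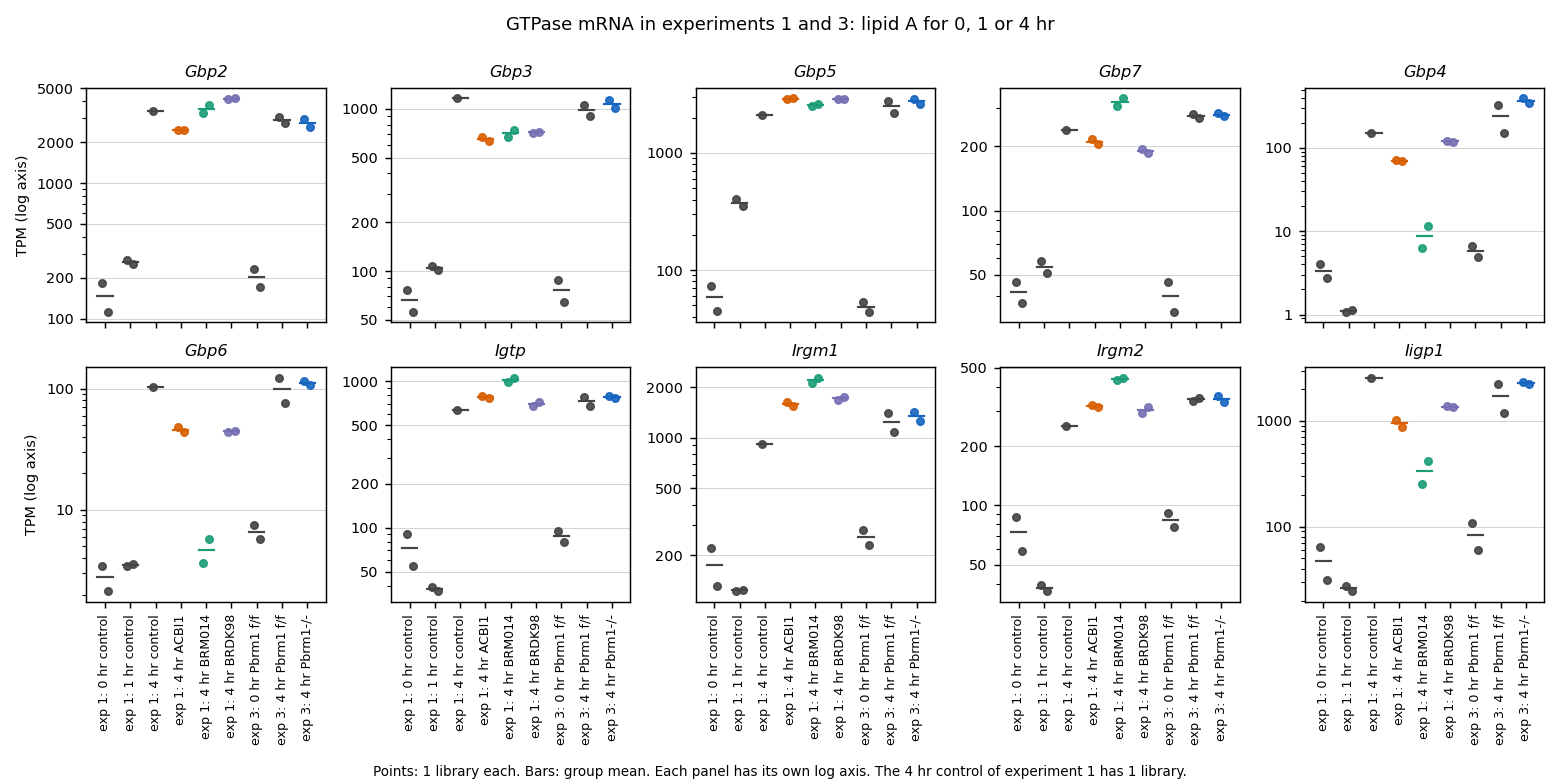
TPM of each member (log axis, 1 panel a gene) in experiments 1 and 3; points are libraries and bars are group means. All 4 hr controls lie above the resting libraries, and with BRM014 at 4 hr Gbp4 (6.26 and 11.5 TPM) and Gbp6 (3.65 and 5.78 TPM) lie far below the control.

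At 1 hr in experiments 1 and 2 the 4 GBPs of chromosome 3 rose and no IRG did. At 1 hr of lipid A in experiment 1, 4 of 10 members rose and 2 fell, where 29.1% of tested genes changed. Gbp5 went from 73.4 and 45.1 to 401 and 352 TPM (2.69 ± 0.18, adjusted p = 3.67e-06). Both 1 hr libraries lay above both resting ones. Gbp2 (0.86 ± 0.18), Gbp3 (0.67 ± 0.13) and Gbp7 (0.39 ± 0.11) also rose. Gbp4 (-1.04 ± 0.22) and Irgm2 (-0.89 ± 0.15) fell. Without control replicate 1 at 1 hr, the library with stromal markers, 3 members were called in place of 6: Gbp2, Gbp3 and Gbp5. The calls of Gbp4 and Irgm2 were also lost without 0 hr replicate 1 or 1 hr replicate 2, and that of Gbp7 without 0 hr replicate 2. Igtp and Irgm1 were called as fallen without 0 hr replicate 2, and Gbp6 as risen without 0 hr replicate 1.

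LPS for 1 hr gave the same 4 rises in experiment 2, again with 2 falls, where 33.8% of tested genes changed. Gbp5 went from 4.38 and 4.24 to 63.0 and 61.5 TPM (3.57 ± 0.09, adjusted p = 1.07e-09). Gbp3 went from 6.62 and 7.33 to 38.3 and 34.1 TPM (2.22 ± 0.13) and Gbp2 from 17.6 and 18.3 to 40.1 and 37.3 TPM (1.06 ± 0.09). Gbp7 changed by 0.39 ± 0.14 (adjusted p = 0.0382), a call lost without 0 hr replicate 1 or either 1 hr control library. Irgm2 fell from 22.3 and 23.7 to 9.43 and 7.40 TPM (-1.36 ± 0.12, adjusted p = 1.6e-05) and Irgm1 from 58.3 and 56.9 to 36.9 and 30.5 TPM (-0.76 ± 0.10). For these 2 IRG regulators too, no 1 hr library overlapped a resting one, and Igtp was called as fallen without 0 hr replicate 2. From 1 to 4 hr all 10 members rose in the controls of experiment 1, where 22.7% of tested genes rose. In experiment 2 the 7 that passed the filter without the 4 hr libraries all rose, where 17.7% of tested genes did.

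The finer times of experiment 4 showed lower levels at 20 min. All 10 members had negative log2 changes at 20 min, from -1.20 ± 0.37 for Iigp1 to -0.52 ± 0.18 for Irgm1, but only Gbp5 passed (-0.78 ± 0.15, adjusted p = 0.0236), where 1.08% of tested genes changed. On each scaling, all 10 had an unadjusted p under 0.05 in limma. The share of all tested genes at that unadjusted threshold is not given here. The members also share the same libraries, so the 10 values are not independent of each other. Gbp5 stood at 77.1 and 58.3 TPM at 0 min and 41.5 and 35.9 TPM at 20 min, without overlap. Its call was lost without 0 min replicate 1 or either 20 min control library, and without 0 min replicate 2 the calls numbered 4. From 20 to 60 min Gbp2, Gbp3, Gbp5 and Gbp6 rose, where 23.3% of tested genes changed, and no IRG passed. Gbp5 went to 170.4 and 149 TPM (2.02 ± 0.15, adjusted p = 2.2e-07). Gbp5 alone was called without 20 min replicate 2 or 60 min control replicate 1. Against 0 min, Gbp5 had risen at 60 min (1.24 ± 0.15), and Irgm2 (-1.30 ± 0.21) and Gbp4 (-1.04 ± 0.25) had fallen. As 25.5% of tested genes changed, the count of calls is near the share of all genes. The other GBPs of chromosome 3 did not pass at 60 against 0 min: Gbp2 changed by 0.07 ± 0.20, Gbp3 by -0.06 ± 0.21 (0.34 on median-ratio scaling, so its sign flipped) and Gbp7 by -0.62 ± 0.23 (-0.23 scaled). Gbp4 lost its call without 0 min replicate 1 or 60 min control replicate 2, and Igtp was called as fallen without 0 min replicate 2 or 60 min control replicate 1.

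With the degrader ACBI1, all 10 GTPase mRNAs stood higher at 60 min of lipid A than in control cells. Gbp2 stood at 282 and 205 TPM in the 60 min control and 970.0 and 895 TPM with ACBI1 (1.95 ± 0.20, adjusted p = 1.26e-05). Gbp4 had the largest log2 change, from 5.66 and 3.30 TPM to 42.7 and 44.1 TPM (3.05 ± 0.25, adjusted p = 1.9e-06). For each of the 10, both ACBI1 libraries lay above all 16 other libraries of experiment 4, resting cells included.

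Iigp1, the effector IRG, went from 72.3 and 39.8 TPM to 336 and 329.9 TPM (2.61 ± 0.37). Gbp6, the neighbour of Gbp4, went from 10.4 and 6.62 TPM to 41.0 and 44.0 TPM (2.22 ± 0.24). Among the regulators, Igtp went from 60.7 and 40.6 TPM to 204 and 196 TPM (1.99 ± 0.20). Irgm1 (1.45 ± 0.18) and Irgm2 (1.76 ± 0.21) rose as well, so effector and regulators of the IRG system rose together. Gbp5, the member with the largest rise in the first hour of control cells, had the smallest change (1.28 ± 0.15, from 170.4 and 149 to 395 and 379.8 TPM). Gbp7 (1.38 ± 0.23) and Gbp3 (1.54 ± 0.21) rose too. The 10 of 10 compare with 11.6% of tested genes that rose, and the median of the members was 1.85 beside -0.14 over all tested genes. The members together took 0.492% and 0.523% of listed TPM with ACBI1 and 0.130% and 0.176% in the 60 min control. At this time the summed granulocyte markers were lower with ACBI1 (268 to 283 TPM) than in the control (421 to 439 TPM), with 3 of the 6 that were tested fallen, and their part in the result was not tested.

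At 20 min no member was called with ACBI1, BRM014 or BRDK98, where 0.147%, 0.39% and 1.33% of tested genes changed. All 30 log2 changes were negative, from -0.47 ± 0.21 (Irgm2, ACBI1) to -0.08 ± 0.20 (Igtp, BRDK98), and the 3 comparisons share the same 2 control libraries. In limma, 2 members had an unadjusted p under 0.05 with ACBI1 (1 on median-ratio scaling) and 0 with BRM014 or BRDK98, and limma voom on recovered reads called 0 with each compound. Gbp2, for example, was at 158 and 129 TPM in the 20 min control and 133 and 112 TPM with ACBI1. The ACBI1 difference at 60 min exceeded that at 20 min for all 10 members in a test of the difference itself, by 1.41 ± 0.22 (Gbp5) to 3.35 ± 0.35 (Gbp4), where 18.5% of tested genes passed.

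With BRM014, the ATPase inhibitor, the members that fell at 60 min were the 4 GBPs of chromosome 3. Gbp7 went from 44.1 and 37.0 TPM to 12.7 and 24.7 TPM (-1.14 ± 0.23, adjusted p = 0.00263) and Gbp3 from 111 and 77.0 TPM to 38.3 and 50.5 TPM (-1.06 ± 0.21, adjusted p = 0.00217). Gbp2 (-0.65 ± 0.20, adjusted p = 0.0247) and Gbp5 (-0.58 ± 0.15, adjusted p = 0.011) fell too. In all 4 the BRM014 libraries lay below the controls. The IRGs lay close to control: Igtp 0.06 ± 0.20, Irgm1 0.10 ± 0.18, Irgm2 0.12 ± 0.21 and Iigp1 0.00 ± 0.37, none past the threshold. Gbp4 (5.66 and 3.30 TPM in the control, 2.71 and 3.81 TPM with BRM014) had a lower group mean but did not pass. The same held for Gbp6 (10.4 and 6.62 TPM, then 4.37 and 7.29 TPM). For both the libraries overlapped. The 4 falls compare with 13.4% of tested genes that fell. Without control replicate 1 or BRM014 replicate 1 only Gbp3 and Gbp7 were called, and Gbp2 was also lost without BRM014 replicate 2. In that last fit Gbp6 of chromosome 5 was called instead (-0.80, adjusted p = 0.0304), so the limit to chromosome 3 rests on that library. No member passed the limma test of a different BRM014 effect at 60 and 20 min, where 13.3% of tested genes passed, 2 members had an unadjusted p under 0.05 and voom called 0, and 1 did (Gbp3 or Gbp7) without control replicate 2 or BRM014 replicate 2 at 60 min.

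With BRDK98, 7 of 10 members fell at 60 min, where 5.53% of tested genes fell. Gbp6 changed most, from 10.4 and 6.62 TPM to 1.80 and 2.79 TPM (-1.52 ± 0.24, adjusted p = 0.000706). Irgm2 went from 36.9 and 23.8 TPM to 13.4 and 16.0 TPM (-0.97 ± 0.21) and Irgm1 from 193 and 143 TPM to 79.1 and 101 TPM (-0.89 ± 0.18). Gbp3 (-0.97 ± 0.21), Gbp2 (-0.78 ± 0.20), Igtp (-0.67 ± 0.20) and Gbp5 (-0.65 ± 0.15) also fell, while Gbp4 (-0.73 ± 0.25), Gbp7 (-0.61 ± 0.23) and Iigp1 (-1.15 ± 0.37) did not pass on TPM as deposited. This count rests on single libraries: without control replicate 1 or BRDK98 replicate 1 only Gbp6 was called, and without control replicate 2 the calls numbered 9. No member passed the limma test of a different BRDK98 effect at 60 and 20 min, where 6.66% of tested genes passed, 4 members had an unadjusted p under 0.05 and voom called 1, and 3 did (Gbp6, Irgm1 and Irgm2) without control replicate 2 at 60 min, and 1 (Gbp6) without BRDK98 replicate 2.

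The 3 pairs of compounds were also compared directly at 60 min, with p adjusted over all tested genes within each pair. All 10 members were lower with BRM014 than with ACBI1, by -1.35 ± 0.18 (Irgm1) to -3.39 ± 0.25 (Gbp4), where 19.6% of tested genes were lower. All 10 were also lower with BRDK98 than with ACBI1, by -1.93 ± 0.15 (Gbp5) to -3.78 ± 0.25 (Gbp4), where 14.3% were. Between BRDK98 and BRM014 all 4 IRGs differed and no GBP of chromosome 3 passed with all libraries in the fit. The IRGs were lower with BRDK98, Irgm2 by -1.10 ± 0.21 (adjusted p = 0.00225), Irgm1 by -0.99 ± 0.18, Iigp1 by -1.15 ± 0.37 and Igtp by -0.73 ± 0.20. Gbp6 was lower as well (-1.03 ± 0.24). Of the GBPs of chromosome 3, Gbp2 differed by -0.13 ± 0.20, Gbp3 by 0.09 ± 0.21, Gbp5 by -0.07 ± 0.15 and Gbp7 by 0.53 ± 0.23. The 5 called were all lower with BRDK98, where 12.3% of tested genes were lower and 26.8% differed in either direction. Without BRDK98 replicate 1 only Irgm1 and Irgm2 were called. Igtp was also lost without either BRM014 library, and Iigp1 without BRM014 replicate 2. Without that library Gbp7 was called as higher with BRDK98 (0.98, adjusted p = 0.000558).

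**Figure D3:**
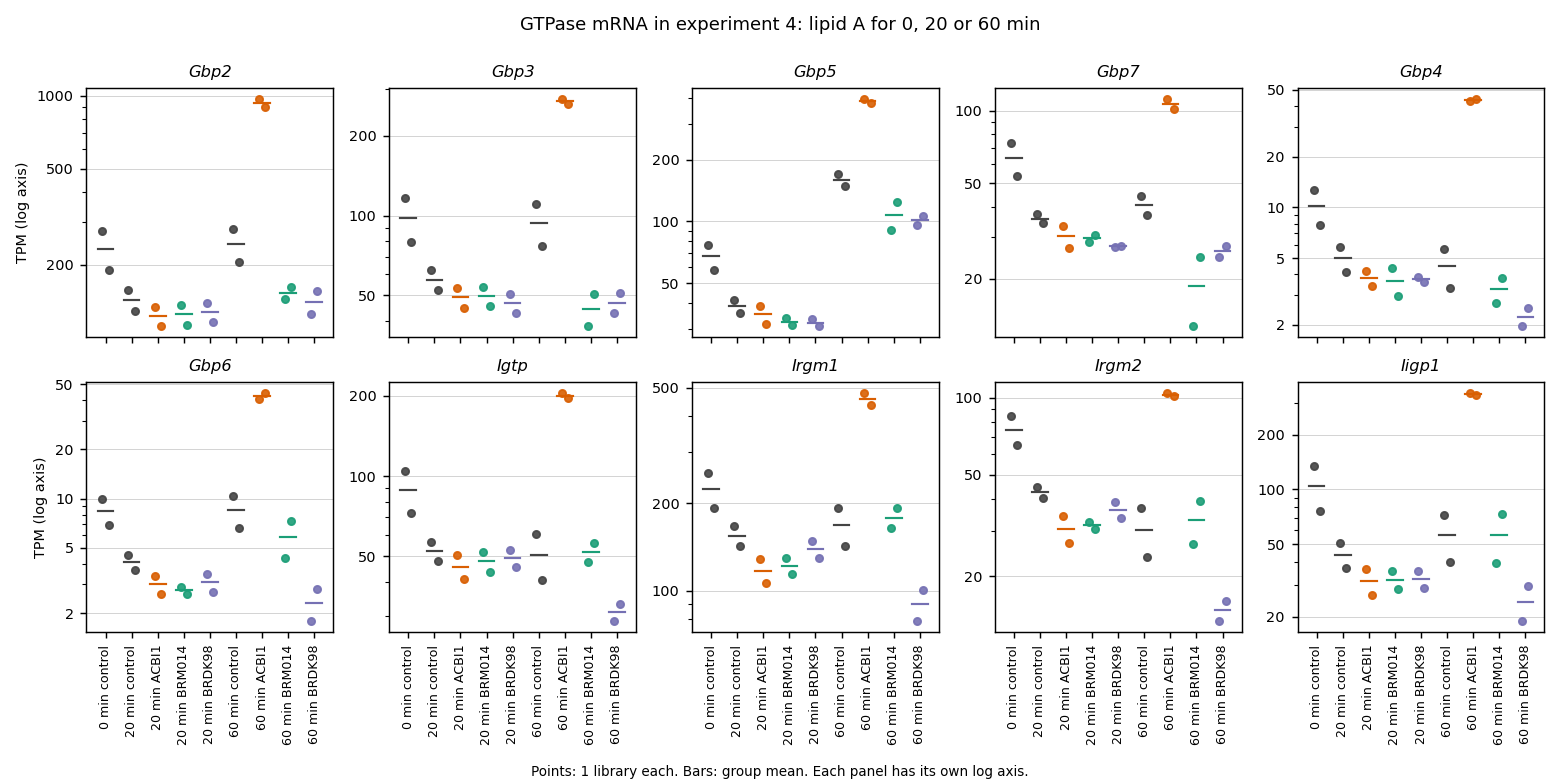
TPM of each member (log axis, 1 panel a gene) in experiment 4; points are libraries, bars are group means and colours are treatments. The ACBI1 libraries at 60 min stand above every other library in all 10 panels, as for Gbp2 at 970.0 and 895 TPM.

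At 4 hr of lipid A the compounds separated the members differently. Gbp4 and Gbp6, the pair on chromosome 5, and Iigp1 were lowest with BRM014. Gbp6 stood at 103 TPM in the 1 control library and 3.65 and 5.78 TPM with BRM014 (-4.21 ± 0.23, adjusted p = 4.81e-07). Gbp4 stood at 151 TPM and 6.26 and 11.5 TPM (-3.99 ± 0.27, adjusted p = 3.61e-06). Iigp1 stood at 2573 TPM and 254 and 422 TPM (-2.97 ± 0.44, adjusted p = 0.00111). With BRM014 Gbp6 lay just above its resting libraries (3.46 and 2.15 TPM), while Iigp1 lay several-fold above its own (63.6 and 31.0 TPM).

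Gbp3 fell with all 3 compounds at 4 hr, from 1163 TPM in the control to 668 and 633 TPM with ACBI1 (-0.84 ± 0.15), 669 and 746 TPM with BRM014 (-0.72 ± 0.15) and 712 and 724 TPM with BRDK98 (-0.70 ± 0.15). These 3 comparisons share the single control library. Gbp6 fell with ACBI1 (48.3 and 43.5 TPM, -1.15 ± 0.23) and BRDK98 (43.9 and 44.8 TPM, -1.19 ± 0.23). Gbp4 fell with ACBI1 (70.7 and 69.6 TPM, -1.09 ± 0.27). With BRDK98 Gbp4 did not pass on TPM as deposited (121 and 118 TPM, -0.33 ± 0.27, adjusted p = 0.321). It passed as lower on median-ratio scaling alone (-0.98). Iigp1 fell with ACBI1 (1022 and 873 TPM, -1.45 ± 0.44, adjusted p = 0.0346), a call lost without either ACBI1 library. In all, 4 of 10 members fell with ACBI1, where 13.5% of tested genes fell. With BRM014 4 fell, where 16.4% did. With BRDK98 2 fell, where 12.4% did, a count near the share of all genes. The control group is 1 library, assumed to vary like the other groups, and could not be left out. Summed granulocyte markers were 21.4 TPM in the control, 42.6 to 52.4 TPM with BRM014 and 6.27 to 6.47 TPM with BRDK98, and their part was not tested.

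The other members at 4 hr depended on the scaling. On median-ratio scaling alone, Gbp7 (-0.96) and Iigp1 (-1.56) passed as lower with BRDK98. Gbp2 (-0.82) and Gbp7 (-0.54) did so with ACBI1. None of these was called, since TPM as deposited did not pass. Irgm1 rose with BRM014, from 923 TPM to 2117 and 2286 TPM (1.25 ± 0.24, or 0.67 on median-ratio scaling), where 26.4% of tested genes rose, and the call was lost without either BRM014 library. With ACBI1 it changed by 0.79 ± 0.24 as deposited and 0.42 scaled, and with BRDK98 by 0.89 ± 0.24 and 0.25, neither called. Gbp5, at 2106 TPM in the control and 2507 and 2616 TPM with BRM014, changed by 0.28 ± 0.22 as deposited and -0.30 scaled, so its sign flipped. With BRM014 the sign also flipped for Gbp2 (0.05 ± 0.23 and -0.53) and Gbp7 (0.43 ± 0.14 and -0.15), and with ACBI1 for Igtp (0.31 ± 0.23 and -0.06) and Irgm2 (0.34 ± 0.18 and -0.03). With BRDK98 it flipped for Gbp2 (0.31 ± 0.23 and -0.33), Gbp5 (0.45 ± 0.22 and -0.20), Igtp (0.15 ± 0.23 and -0.50) and Irgm2 (0.27 ± 0.18 and -0.37). Summed over the 10 members, the share of listed TPM was 1.75% in the control, 1.51% and 1.55% with ACBI1, 1.62% and 1.80% with BRM014, and 1.88% and 1.90% with BRDK98.

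Set directly against ACBI1 at 4 hr, BRM014 gave lower Gbp6 (-3.06 ± 0.19, adjusted p = 1.41e-06), Gbp4 (-2.90 ± 0.22, adjusted p = 1.28e-05) and Iigp1 (-1.52 ± 0.36, adjusted p = 0.0146) and higher Gbp7 (0.61 ± 0.11). These 4 calls, which do not use the single control, compare with 30.3% of tested genes, so their count is near the share of all genes. Iigp1 was lost without ACBI1 replicate 1 or BRM014 replicate 1, and Gbp7 without ACBI1 replicate 2 or BRM014 replicate 2. BRDK98 gave higher Gbp4 (3.66 ± 0.22), Gbp6 (3.02 ± 0.19) and Iigp1 (2.06 ± 0.36) than BRM014, and lower Gbp7 (-0.75 ± 0.11), Igtp (-0.54 ± 0.19) and Irgm2 (-0.52 ± 0.15), where 45.2% of tested genes differed. Igtp lost its call without any 1 of the 4 libraries, and Irgm2 without either BRM014 library or BRDK98 replicate 1. BRDK98 and ACBI1 differed in Gbp2 alone (4173 and 4220.1 against 2483 and 2449 TPM, 0.77 ± 0.18), where 36.5% of tested genes differed, and that call was lost without any 1 of the 4 libraries.

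Loss of Arid1a, a DNA-binding subunit of the canonical SWI/SNF complex, was accompanied at 1 hr of LPS by lower GBPs of chromosome 3 and higher IRG regulators. Gbp5 was at 63.0 and 61.5 TPM in Arid1a f/f and 12.8 and 13.8 TPM in Arid1a-/- cells (-2.15 ± 0.09, adjusted p = 4.63e-07). Gbp7 was at 19.1 and 18.6 TPM and 5.11 and 6.69 TPM (-1.54 ± 0.14, adjusted p = 2.36e-05), below the resting 12.8 and 15.6 TPM of Arid1a f/f cells. Gbp3, at 18.4 and 14.5 TPM, fell by 1.10 on the log2 scale, and Gbp2 changed from 40.1 and 37.3 TPM to 20.5 and 19.3 TPM (-0.92 ± 0.09). All 4 GBPs of chromosome 3 thus fell, with no overlap between genotypes.

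The 3 regulator IRGs rose instead. Irgm1 was at 36.9 and 30.5 TPM in Arid1a f/f and 62.6 and 60.0 TPM in Arid1a-/- cells (0.85 ± 0.10, adjusted p = 0.000138). Igtp was at 13.2 and 11.7 TPM and 22.6 and 22.1 TPM (0.80 ± 0.12, adjusted p = 0.00047). Irgm2 was at 9.43 and 7.40 TPM and 11.0 and 13.3 TPM (0.49 ± 0.12, adjusted p = 0.0109), a call lost without control replicate 2 or Arid1a-/- replicate 2. The only resting libraries were of Arid1a f/f cells and are labelled as total RNA, while the 1 hr libraries are labelled as polyA RNA. By group mean, the 3 regulators were closer to those resting levels in the knockout than in the control, and Igtp and Irgm1 exceeded them. Gbp4 had 5 reads in each Arid1a-/- library and 1 in each control library, near the floor, so no fold is given. Gbp6 (0.20 ± 0.15) and Iigp1 (0.38 ± 0.19), both near or under 1 TPM, did not pass, and both were called without Arid1a-/- replicate 1. The 3 risen and 4 fallen compare with 18.7% and 16.8% of tested genes. Summed granulocyte markers were 33.0 to 39.5 TPM in Arid1a-/- and 23.4 to 24.2 TPM in control cells at 1 hr, and 30.8 to 38.3 TPM against 16.6 to 26.1 TPM at 4 hr, and their part was not tested.

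At 4 hr of LPS fewer members were called than at 1 hr, and they were not the same set. Gbp4 was at 29.3 and 27.3 TPM in Arid1a f/f and 64.3 and 66.0 TPM in Arid1a-/- cells (1.17 ± 0.11, adjusted p = 4.92e-05). Iigp1 was at 406 and 306 TPM and 604 and 607 TPM (0.78 ± 0.19, adjusted p = 0.013), and Gbp3 at 680.3 and 563 TPM and 493 and 451 TPM (-0.39 ± 0.13, adjusted p = 0.0473). Gbp4 was the 1 call left without either Arid1a-/- library. Gbp3 was also lost without control replicate 1, and Iigp1 without control replicate 2. The 2 risen and 1 fallen compare with 13.9% and 10.8% of tested genes, so both counts are near the shares of all genes. Gbp5, the most affected member at 1 hr, was at 1176 and 1063 TPM and 1120.3 and 1003 TPM (-0.08 ± 0.09, adjusted p = 0.564).

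The change of the knockout effect between 1 and 4 hr was tested itself. It was positive for Gbp5 (2.07 ± 0.12, adjusted p = 1.72e-05), Gbp7 (1.23 ± 0.19), Gbp4 (1.02 ± 0.16), Gbp3 (0.71 ± 0.18) and Gbp2 (0.67 ± 0.13), and negative for Igtp (-0.87 ± 0.17) and Irgm1 (-0.71 ± 0.14), where 15.9% of tested genes passed. Gbp3 lost its call without either 1 hr control library, Arid1a-/- replicate 2 at 1 hr, control replicate 2 at 4 hr or either Arid1a-/- library at 4 hr. Gbp2 lost it without control replicate 1 at 1 hr or Arid1a-/- replicate 1 at 4 hr. The value of Gbp4 depends on the 1 added to TPM, since its 1 hr levels are near the floor, its sign turned with voom on recovered reads (-0.84), and its call was lost with a pseudocount of 0.1 (0.26). Iigp1 was called without Arid1a-/- replicate 2 at 1 hr (0.71). Within Arid1a-/- cells the 7 members that passed the filter without the 4 hr libraries still rose from 1 to 4 hr, by 3.95 ± 0.10 (Irgm1) to 6.21 ± 0.09 (Gbp5), where 18% of tested genes rose.

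**Figure D4:**
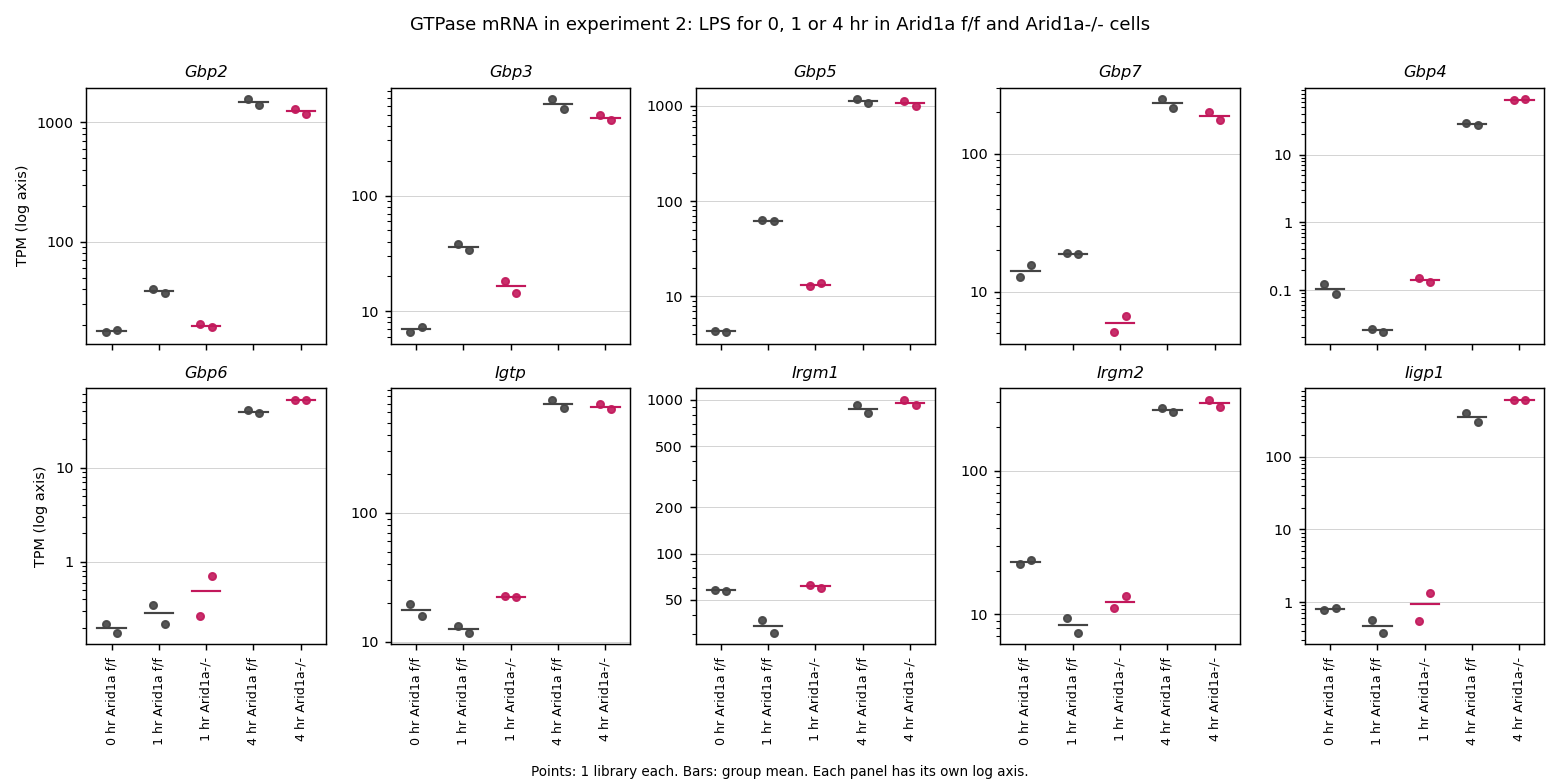
TPM of each member (log axis, 1 panel a gene) in experiment 2; points are libraries, bars are group means, and Arid1a-/- cells are in pink. At 1 hr Arid1a-/- cells lie below Arid1a f/f cells for Gbp2, Gbp3, Gbp5 and Gbp7 and above them for Igtp, Irgm1 and Irgm2, while Gbp4 before 4 hr rests on 1 to 5 reads.

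Loss of Pbrm1, a subunit of the polybromo form of SWI/SNF, gave no called member at 4 hr of lipid A, where 0.00905% of tested genes passed. Pbrm1 itself (-1.48 ± 0.17) also did not pass in limma (adjusted p = 0.0265 on TPM as deposited, 0.114 on median-ratio scaling). A lack of calls there therefore does not show a lack of effect. Gbp2 was at 3048 and 2752 TPM in Pbrm1 f/f and 2964 and 2593 TPM in Pbrm1-/- cells (-0.06 ± 0.17, adjusted p = 0.909). The sign for Gbp2 flipped on median-ratio scaling (0.11). The log2 changes of the 10 ran from -0.06 ± 0.17 (Gbp2) to 0.73 ± 0.37 (Gbp4, adjusted p = 0.515). In limma 0 members had an unadjusted p under 0.05, and voom called 0. Gbp4 was at 328 and 150.3 TPM in the 2 control libraries, which themselves differed widely, and 394 and 346 TPM in Pbrm1-/- cells. Without control replicate 1, Gbp4 and Gbp6 were called, and the calls over all genes went from 1 to 1105. Summed granulocyte markers were 308 to 336 TPM in Pbrm1-/- and 425 to 511 TPM in control cells, and their part was not tested.

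**Figure D5:**
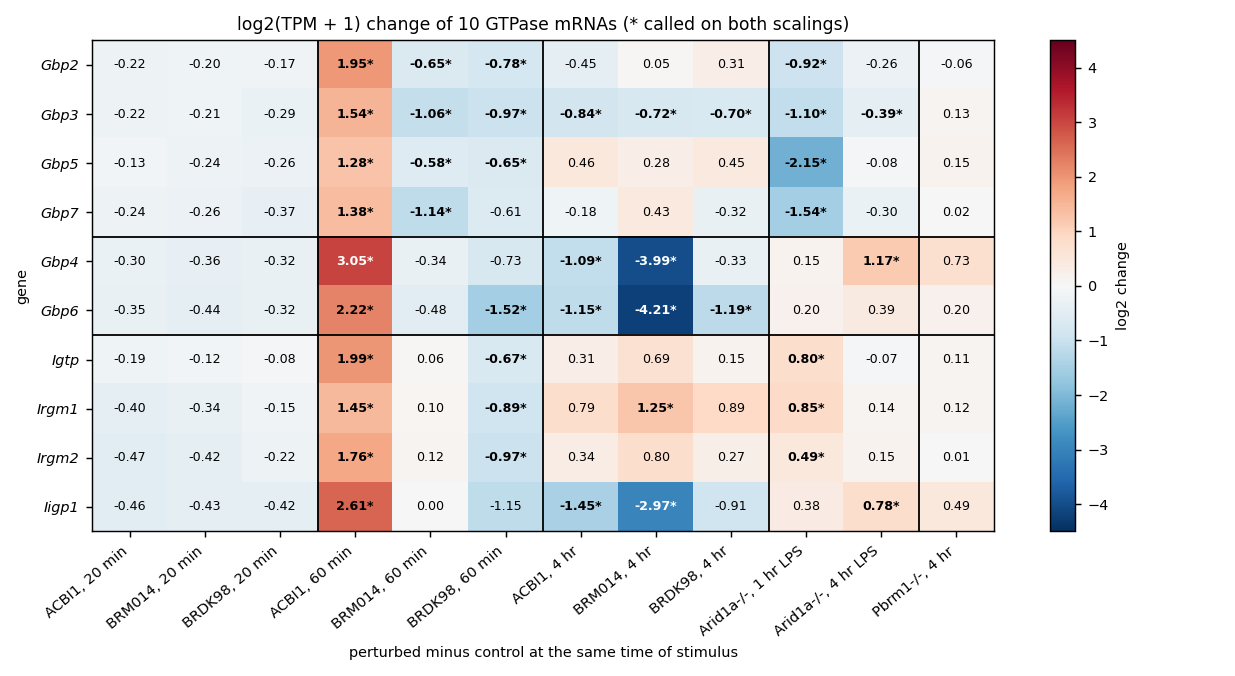
Log2 changes of the 10 members (rows: chromosome 3 GBPs, chromosome 5 GBPs, IRGs) in 12 comparisons of perturbed with control cells (columns); red is higher and blue lower than control, and a star marks a change called on both scalings. Columns of 1 time and experiment share control libraries. ACBI1 at 60 min is higher in all 10 rows, and BRM014 at 4 hr has the lowest values, for Gbp6 (-4.21 ± 0.23) and Gbp4 (-3.99 ± 0.27).

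Ifnb1, which encodes interferon-beta, did not follow the members in every comparison. It was at 988 and 688 TPM in the 60 min control of experiment 4 and at 1138 and 1165 TPM with ACBI1 (0.48 ± 0.15, adjusted p = 0.0205). It was at 153 and 135 TPM with BRM014 (-2.51 ± 0.15) and 79.4 and 102 TPM with BRDK98 (-3.18 ± 0.15). Ifnb1 therefore fell several-fold with both, while the IRGs with BRM014 lay near control. At 4 hr Ifnb1 was higher in every ACBI1, BRM014, BRDK98 and Arid1a-/- library than in the controls. Experiment 1 had 10.5 TPM in the control, 230.2 and 161 TPM with ACBI1 (4.07 ± 0.30), 1005 and 1073 TPM with BRM014 (6.49 ± 0.30) and 157 and 155 TPM with BRDK98 (3.77 ± 0.30). Arid1a-/- cells had 44.4 and 48.1 TPM against 5.50 and 3.75 TPM (3.09 ± 0.19), though at 1 hr Ifnb1 did not pass (-0.23 ± 0.19, adjusted p = 0.364).

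Stat2, which encodes a factor that carries the interferon signal, rose like the members at 60 min of ACBI1. It was at 65.2 and 47.5 TPM in the control and 148 and 155 TPM with ACBI1 (1.43 ± 0.21). Irf9 did not pass there (0.18 ± 0.07, adjusted p = 0.072). At 4 hr, against the single control library, Irf9 rose with BRM014 (1.30 ± 0.11) and BRDK98 (1.38 ± 0.11). In Arid1a-/- cells at 1 hr Stat2 rose (0.89 ± 0.09, 19.9 and 23.3 against 11.6 and 10.7 TPM) and Irf1 fell (-0.30 ± 0.09). Irf1 rose with ACBI1 at 60 min (0.21 ± 0.08, adjusted p = 0.0497) and 4 hr (1.34 ± 0.11), with BRM014 at 4 hr (1.02 ± 0.11), in Arid1a-/- cells at 4 hr (0.41 ± 0.09) and with BRDK98 at 60 min (0.72 ± 0.08), where 7 members fell. It fell with BRM014 at 60 min (774 and 773 against 1093 and 990.4 TPM, -0.43 ± 0.08), where the GBPs of chromosome 3 fell, and with BRDK98 at 20 min (-0.47 ± 0.08).

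Counts of pathway genes are read against the share of all tested genes called. With ACBI1, 11.6% rose and 13.7% fell at 60 min, and 20% and 13.5% at 4 hr. With BRM014 the shares were 16.8% and 13.4% at 60 min and 26.4% and 16.4% at 4 hr. With BRDK98 they were 6.05% and 5.53% at 60 min and 22% and 12.4% at 4 hr. In Arid1a-/- cells they were 18.7% and 16.8% at 1 hr and 13.9% and 10.8% at 4 hr.

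Among genes of interferon signalling and its transcription factors, 12 of 21 tested rose and 0 fell with ACBI1 at 60 min (median 0.48), among them Irf7 (2.30 ± 0.21), which amplifies interferon production, and the feedback inhibitor Usp18 (2.10 ± 0.23). In Arid1a-/- cells at 1 hr 4 of 21 tested rose and 9 fell, with Usp18 higher (2.34 ± 0.14) and the kinase gene Jak2 lower (-1.56 ± 0.11), the count of rises being near the share of all genes. At 4 hr with BRM014 3 of 21 tested rose and 7 fell, the rises below that share. Among antiviral effector genes of type I interferon, 20 of 20 tested rose and 0 fell with ACBI1 at 60 min (median 1.52), such as Ifi44 (2.58 ± 0.33) and Ifit3 (2.14 ± 0.28). With BRDK98 at 60 min 0 of 20 tested rose and 11 fell, and with BRM014 1 of 20 tested rose and 3 fell, the latter near or below the shares of all genes. In Arid1a-/- cells at 1 hr 12 of 20 tested rose and 1 fell, with Ifit3 at 1.85 ± 0.12 and Ifih1, a sensor of double-stranded RNA, at -1.28 ± 0.09. At 4 hr 2 of 20 tested rose and 1 fell with ACBI1, 3 of 20 tested rose and 2 fell with BRM014 and 1 of 20 tested rose and 0 fell in Arid1a-/- cells, each count below the share of all genes. With BRM014 at 4 hr Ifi44 fell (-2.20 ± 0.28) and Isg15, the ubiquitin-like modifier, rose (1.97 ± 0.16).

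Other genes of the 2 GTPase families and related interferon-induced GTPases formed a list of 24. With BRM014 at 4 hr 1 of 19 tested rose and 12 fell (median -1.19, beside 0.43 over all tested genes). The largest falls were of the IRG genes Tgtp1 (-3.02 ± 0.21) and Gm4841 (-2.80 ± 0.22) and of Gbp11 (-2.43 ± 0.16). With ACBI1 at 4 hr 1 of 19 tested rose, below the share of all genes, and 6 fell, Gm4841 by -2.91 ± 0.22 and Tgtp1 by -2.36 ± 0.21. With BRDK98 at 4 hr 1 of 19 tested rose and 2 fell, and these BRDK98 counts are below the shares of all genes. With ACBI1 at 60 min 18 of 20 tested rose and 1 fell, Tgtp2 by 2.66 ± 0.27 and the antiviral GTPase gene Mx1 by 2.05 ± 0.29. In Arid1a-/- cells at 4 hr 6 of 20 tested rose and 1 fell, again Gm4841 (1.01 ± 0.12), Tgtp1 (0.96 ± 0.13) and Gbp11 (0.87 ± 0.12), here higher than in the control.

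Among genes that act with the GTPases in vacuole targeting or the inflammasome, 7 of 20 tested rose and 4 fell with ACBI1 at 60 min (median -0.16), the falls near the share of all genes. The inflammasome sensor gene Nlrp3 fell (-1.14 ± 0.08) and Gsdmd, which encodes the pore protein cut by inflammatory caspases, rose (1.03 ± 0.07). With BRM014 at 60 min 2 of 20 tested rose and 6 fell, the rises below the share of all genes, Nlrp3 by -3.03 ± 0.08 and Casp4 by -1.19 ± 0.11. In Arid1a-/- cells at 1 hr 1 of 20 tested rose and 7 fell, Casp4 by -1.28 ± 0.11 and Nlrp3 by -1.12 ± 0.09. Casp4, which encodes an LPS-sensing caspase, also fell with BRDK98 at 60 min (-0.58 ± 0.11) and in Arid1a-/- cells at 4 hr (-0.63 ± 0.11), where Gbp3 was the 1 called GBP of chromosome 3. At 4 hr the autophagy receptor gene Sqstm1 rose with BRM014 (3.81 ± 0.09) and ACBI1 (3.21 ± 0.09), and Aim2, a sensor of cytosolic DNA, fell with both (-1.86 ± 0.19 and -0.89 ± 0.19).

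Over the 45 libraries, with each gene centred on its mean in each experiment, the genes whose log2(TPM + 1) ran most closely with the mean of the members were Tgtp2 (r = 0.987), Cmpk2 (0.987), Parp14 (0.984), Nt5c3 (0.983), Ifi209 (0.982), Daxx (0.981), Il15 (0.981) and Mir6381 (0.981), of 10409 genes tested in all experiments. Mir6381 lies over an exon of Gbp2, and the authors counted reads on both strands, so its reads cannot be told from those of Gbp2. All these genes share the libraries and the contrast of 4 hr with earlier times, and no p is given. Among the members, Gbp2 (0.989) and Iigp1 (0.987) ran closest to that mean and Gbp5 (0.930) least. Each member is itself part of the mean, which raises its r, so these values are not read beside those of the other genes.

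In the authors' deposited tables of comparisons, made with their own test and read here at an adjusted p under 0.05 with the direction set by the sign of Tnf after the stimulus, no member was called in the direction opposite to a call made here. The authors' deposited table for ACBI1 at 60 min also lists 10 of 10 members as higher, those for BRM014 and BRDK98 at 60 min 4 and 7 as lower, and that for Pbrm1-/- none. Other counts differed. At 4 hr the authors' deposited tables list 2 members as higher and 6 as lower with ACBI1 (0 and 4 here), 2 and 6 with BRM014 (1 and 4 here) and 1 and 9 with BRDK98 (0 and 2 here). At 20 min the authors' deposited tables list 5 as lower against 0 min (1 here), 4 with BRM014 and 1 with BRDK98 (0 here for both). For Arid1a-/- the authors' deposited tables list 2 as higher and 4 as lower at 1 hr (3 and 4 here) and 3 and 3 at 4 hr (2 and 1 here). No falls are listed in the authors' deposited tables for lipid A at 1 hr or 60 min against rest, where 2 were called here in each.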

How the data were processed

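RNA from mouse bone marrow-derived macrophages was sequenced from a stranded mRNA library as single-end reads of 50 bp, per the labels' protocols. The submitters' processing notes name STAR 2.5.3a and the builds mm10 and GRCm38. Per the file headers, HOMER counted reads of both strands over exons, kept 1 transcript per gene, and gave the deposited TPM values, in 4 tables for 46 labelled samples. The authors also deposited log2 fold changes and adjusted p-values for their comparisons, made from raw counts with DESeq2 per the submitters' processing notes. In 1 TPM table a column of the 4 hr control repeated another in all 24537 genes and was not used.

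Here groups were taken from the labels. Genes with at least 1 TPM in at least 2 libraries of an experiment were tested on log2(TPM + 1) with limma 3.58.1 (trend and robust moderation, R 4.3.3), 1 fit per experiment over all its groups, with Benjamini-Hochberg adjustment over all tested genes. The call needed an adjusted p under 0.05 and 1 sign on both scalings. The fit was also run on simulated reads, for a single comparison per experiment and with the same spread for all genes. Real replicates differed more unevenly, so that run does not show how reliable the calls are. Recovered reads are TPM times length in whole steps of 1 read (tolerance 0.1), and were used for depth and for voom. The numbers of reads limit the lowest genes, and the floor of 3 reads covers counting error only. Other settings tried were each scaling alone, a pseudocount of 0.1, no filter, no moderation, voom, the replicate number as a block, and leaving out each library.

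All 10 members are named, with Arid1a, Pbrm1, Ifnb1, Stat2, Irf1 and Irf9. A further gene named by the rule is not reported here. From each list of pathway genes, names come from up to 4 called genes with the largest log2 change at 5 TPM or more, and 8 genes were named as most like the members. The members and lists were chosen with earlier results of these data known. Over all tested genes, replicate numbers paired the samples weakly or not at all. The median correlation of replicate differences between groups was 0.0218, 0.0205, 0.146 and -0.011 in experiments 1 to 4. The correlation exceeded 0.1 in 2 of 3 pairs of groups in experiment 3 (up to 0.228) and 11 of 36 in experiment 4 (up to 0.236). Summed TPM of the members was higher in replicate 1 of every group of experiment 3 and most groups of experiment 4, so pairing of the members is not excluded. Promoters came from RefSeq (GRCm38.p6).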

Additional observations from a re-analysis of the deposited data

Results flagged for a closer look

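The effect of Arid1a loss differed between 4 and 1 hr of LPS for 7 members in a limma test of the difference itself (log2, effect at 4 hr minus effect at 1 hr). The difference was 2.07 for Gbp5, 1.23 for Gbp7, 1.02 for Gbp4, 0.71 for Gbp3 and 0.67 for Gbp2. It was -0.87 for Igtp and -0.71 for Irgm1. The count includes Gbp4, which rests on 1 to 5 reads per library at 1 hr: its sign turned with voom (-0.84) and its call was lost with a pseudocount of 0.1 (0.26).

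The effect of ACBI1 differed between 60 and 20 min of lipid A for all 10 members in the same kind of test (effect at 60 min minus effect at 20 min). The difference was 3.35 for Gbp4, 3.07 for Iigp1, 2.57 for Gbp6, 2.23 for Irgm2, 2.18 for Igtp, 2.17 for Gbp2, 1.85 for Irgm1, 1.76 for Gbp3, 1.63 for Gbp7 and 1.41 for Gbp5.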

How the results depend on the processing

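The 10 of 10 members called in control cells at 4 hr against 0 hr (3 of which passed the filter in experiment 2 only through their 4 hr libraries), and with ACBI1 at 60 min against control, BRM014 or BRDK98, stayed at 10 in every fit without 1 library. On TPM as deposited alone, 8 members were called in place of 5 for BRM014 at 4 hr, 5 in place of 3 for 60 min against 0 min, and 2 in place of 1 between BRDK98 and ACBI1 at 4 hr. On median-ratio scaling alone, 5 were called in place of 2 for BRDK98 at 4 hr, 2 between BRDK98 and ACBI1, 5 in place of 3 for Arid1a-/- at 4 hr, and 2 and 1 in place of 0 for the change of the BRM014 and BRDK98 effects from 20 to 60 min. With voom 2 were called between BRDK98 and ACBI1, 5 for Arid1a-/- at 4 hr and 1 for the change of the BRDK98 effect. A pseudocount of 0.1 left 1 for Arid1a-/- at 4 hr. No filter left 0 for 20 min against 0 min and 0 between BRDK98 and ACBI1, as did no moderation for the latter (0). The change of the Arid1a effect on Gbp4 reversed with voom (-0.84), where its 1 hr libraries hold 1 to 5 reads, and the cause was not tested in these other cases.

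With the replicate number as a block, 0 members were called between BRDK98 and ACBI1 at 4 hr, and 326 of 330 single values kept their side of the threshold. Over all tested genes the numbers paired the samples weakly or not at all.

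Without 1 library, calls ranged from 3 to 7 for 1 hr of lipid A, were 0 between BRDK98 and ACBI1 at 4 hr, and ranged from 1 to 2 for Arid1a-/- at 4 hr and 0 to 2 for Pbrm1-/-. In experiment 4 they ranged from 0 to 4 at 20 min, 1 to 4 from 20 to 60 min, 2 to 4 for BRM014 and 1 to 9 for BRDK98 at 60 min, and 2 to 5 between these. For the change of effect they ranged from 0 to 1 (BRM014) and 0 to 3 (BRDK98). Of 1380 single values, 1275 kept their call, 81 lost and 24 gained one, and 0 reversed.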
